A study of Mus musculus with 2 samples.

Results

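The 5 mouse peptidylarginine deiminase genes, Padi1, Padi2, Padi3, Padi4 and Padi6, were examined in whole uterus on gestational day 4. They were taken by symbol, all 5 were present in the deposited data, and they are 5 of 55363 genes. They were chosen with their difference between the libraries already known, so that difference is given as a description. The data hold 1 RNA-seq library of Mettl14 d/d uterus and 1 of Mettl14 f/f uterus, 2 libraries in all, from females mated with fertile males at 6-8 weeks of age. In the usual notation d/d stands for deleted and f/f for floxed alleles, f/f being the control. The labels name no Cre driver, no strain and no number of animals behind a library. The tissue was whole uterus of mixed cell types, in which more cells of a type and more RNA per cell cannot be told apart. With 1 library per genotype no value has a replicate error, no difference was tested, and higher and lower compare these libraries.

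Peptidylarginine deiminases turn arginine residues of proteins into citrulline in a calcium-dependent reaction, which removes the positive charge of the side chain. PADI1 and PADI3 act on keratin-associated proteins in epidermis and hair follicles, PADI2 is found in many tissues, PADI4 modifies histones and is needed for neutrophil extracellular traps, and PADI6 belongs to the cytoplasmic lattices of the mouse oocyte. In the rodent uterus this enzyme family is known to vary with the estrous cycle and to respond to estrogen.

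The stretches before the starts of Padi1, Padi2 and Padi4 are shown because these genes held nearly all of the family's signal. They come from RefSeq on GRCm38.p6, the assembly also called mm10, and run 5′ to 3′ on the strand of the gene from 250 to 11 bases before its RefSeq start. That start lies 33 bases inside the gene as GENCODE annotates it for Padi4 and 16 bases inside it for Padi2, so the ends of those stretches overlap the GENCODE genes. Capitals mark the CCAAT box (CCAAT), the GC box (GGGCGG), the TATA box (TATAAA) and the AP-1 site (TGANTCA), read on both strands. The Padi1 stretch is chr4:140845789-140846028 on the minus strand, the Padi2 stretch chr4:140906110-140906349 on the plus strand and the Padi4 stretch chr4:140774214-140774453 on the minus strand.
Padi1: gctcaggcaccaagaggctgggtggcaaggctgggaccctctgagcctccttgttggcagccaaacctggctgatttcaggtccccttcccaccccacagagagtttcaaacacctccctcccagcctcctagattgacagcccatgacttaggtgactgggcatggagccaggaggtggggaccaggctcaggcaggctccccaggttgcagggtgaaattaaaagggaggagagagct
Padi2: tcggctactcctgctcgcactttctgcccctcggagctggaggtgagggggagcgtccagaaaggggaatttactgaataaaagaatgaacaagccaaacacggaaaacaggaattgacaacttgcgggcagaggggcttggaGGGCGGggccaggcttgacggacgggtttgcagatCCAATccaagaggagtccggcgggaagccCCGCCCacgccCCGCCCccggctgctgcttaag
Padi4: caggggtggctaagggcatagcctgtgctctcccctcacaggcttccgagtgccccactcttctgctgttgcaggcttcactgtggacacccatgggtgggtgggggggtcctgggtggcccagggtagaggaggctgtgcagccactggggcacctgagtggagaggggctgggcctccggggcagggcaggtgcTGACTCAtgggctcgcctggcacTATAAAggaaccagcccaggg
These stretches did not share a layout. The Padi2 stretch held 15 CpG pairs, whereas the Padi1 stretch held 0 and the Padi4 stretch 3, beside a median of 5 over all promoters. Their GC content was 59.6% for Padi1, 60.4% for Padi2 and 66.2% for Padi4, beside a median of 52.1%. Padi2 had 3 GC boxes, and 35.7% of 32851 promoter windows of 300 bases held at least 1. Padi4 had a TATA box 31 bases before its RefSeq start at 140774203, a motif in 13.6% of promoters, and an AP-1 site 54 bases before it, a motif in 7.81%. None of the motifs searched had a match in the Padi1 window. The palindromic estrogen response element, GGTCA and TGACC with 3 bases between them, occurs in 0.07% of promoter windows and had no match in the 5 Padi windows, while its part GGTCA, which also lies inside the palindrome, occurs in 40.5% and was found once, 7 bases after the Padi4 start. The receptor part AGAACA occurs in 19.0% and had no match. These windows say nothing about sites elsewhere, and no binding was measured.

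Padi transcripts were far more abundant in the d/d uterus. Levels are the authors' FPKM, in which fragments are corrected for gene length and for library size, so that levels of different genes can be set side by side. Padi1, Padi2, Padi3 and Padi4 were all higher in d/d, and Padi6 was listed at 0 in both libraries. The 5 genes together summed to 577 FPKM in d/d, against 14.9 FPKM in f/f, which is 38.6-fold.

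Padi1 was 338 FPKM in the d/d library and 3.96 FPKM in the f/f library. Padi1 encodes a deiminase of epidermis and uterus, and it was the most abundant member in d/d but not in f/f. The fold was 85.3. From the estimated depth these levels stand for about 26422 fragments in d/d and 264 in f/f, for which the exact 95% binomial interval of the fold was 75.5 to 96.6. Such intervals cover counting error only, treat fragments as independent molecules and leave out the variation between animals.

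Padi2 was 185 FPKM in d/d and 7.81 FPKM in f/f. It was the most abundant member in f/f and the second in d/d. Its fold was 23.7, with a counting interval of 21.9 to 25.6. Padi4, the deiminase with a nuclear localization signal, was 52.6 FPKM in d/d and 3.16 FPKM in f/f. It was the third in both libraries. Its fold was 16.6, with a counting interval of 13.9 to 20.0, so the order of folds Padi1, Padi2, Padi4 was beyond counting error in these libraries.

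Padi3, the hair follicle enzyme, was 2.56 FPKM in d/d and 0.0181 FPKM in f/f. The f/f value stands for about 1 fragment and the d/d value for about 164. The ratio of 141 therefore has a counting interval of 24.7 to 5550, which lies above that of Padi4 and overlaps those of Padi1 and Padi2. Padi6, the oocyte enzyme, was listed at 0 in both, where 3 fragments would have been 0.0617 FPKM in d/d and 0.0724 FPKM in f/f. These are rough upper limits for Padi6 and not a threshold of detection, since the f/f value of Padi3 stands for about 1 fragment.

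**Figure D1:**
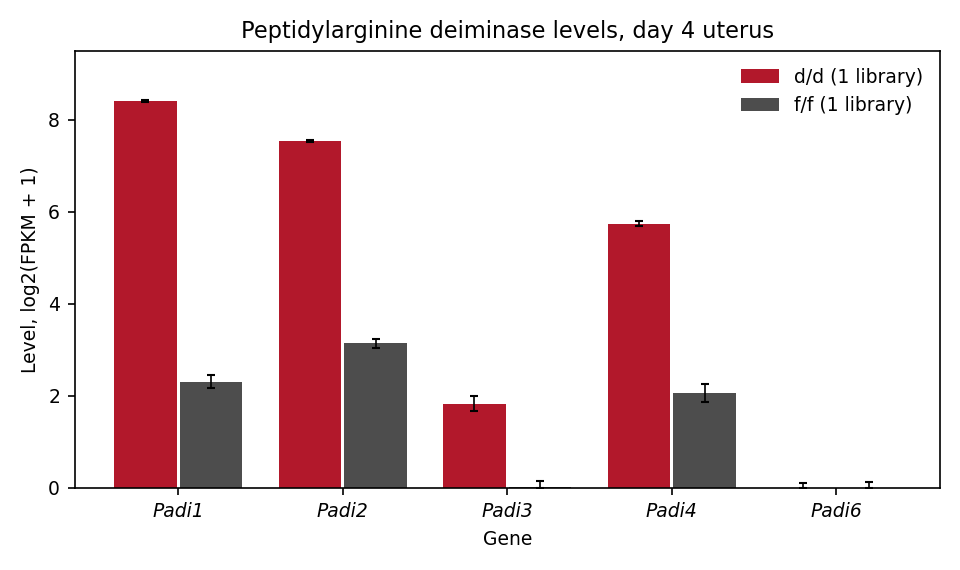
Level of each Padi gene as log2(FPKM + 1) in the d/d library (red, left) and the f/f library (grey, right), 1 library each. Error bars are exact 95% Poisson limits of the estimated fragments and cover counting error only. Padi1 reached 338 FPKM in d/d and 3.96 FPKM in f/f, and Padi6 was at 0 in both.

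The make-up of the family differed between the libraries. Padi1 made up 58.5% of the summed Padi FPKM in d/d and 26.5% in f/f. Padi2 made up 32.0% in d/d and 52.2% in f/f, and Padi4 9.1% in d/d and 21.2% in f/f. Padi3 stayed under 1% of the sum in both, at 0.443% in d/d and 0.121% in f/f. The level of Padi1 was 1.83 times that of Padi2 in d/d and 0.507 times that of Padi2 in f/f, so these genes changed places. In f/f Padi1 was 1.25 times Padi4, and their counting limits of 3.49 to 4.46 FPKM for Padi1 and 2.64 to 3.76 FPKM for Padi4 overlapped. In d/d Padi1 was 6.42 times Padi4, with limits of 334 to 342 FPKM for Padi1 and 50.5 to 54.7 FPKM for Padi4.

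For comparison with all genes, FPKM + 1 in d/d was divided by FPKM + 1 in f/f and put on a log2 scale, which understates the difference of genes near or below 1 FPKM. The 16263 genes that reached 1 FPKM in d/d or in f/f were kept, and a log2 ratio of 1 or more in size was called 2-fold. In d/d 10.2% of them were past 2-fold higher, 8.28% were past 2-fold lower and the median log2 ratio was -0.01. With upper quartile scaling this balance turned, to 1490 genes higher and 1502 lower. The counts of list genes given below stand beside the shares of 10.2% higher and 8.28% lower over all genes. Of the 5 Padi genes 4 reached 1 FPKM and all 4 were past 2-fold higher, but the members were chosen on this difference and Padi3 entered through its d/d value. The log2 ratios were 6.09 for Padi1, 4.40 for Padi2, 3.69 for Padi4 and 1.80 for Padi3. That of Padi3 depended on the pseudocount, at 4.49 with 0.1 FPKM added and 0.59 with 5 FPKM added. Ratios at or above that of Padi1 were held by 13 genes, itself included, at or above that of Padi2 by 48, at or above that of Padi4 by 93 and at or above that of Padi3 by 582. By level Padi1 ranked 420 of all genes in d/d and 12520 in f/f, and Padi2 ranked 773 in d/d and 10327 in f/f.

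**Figure D2:**
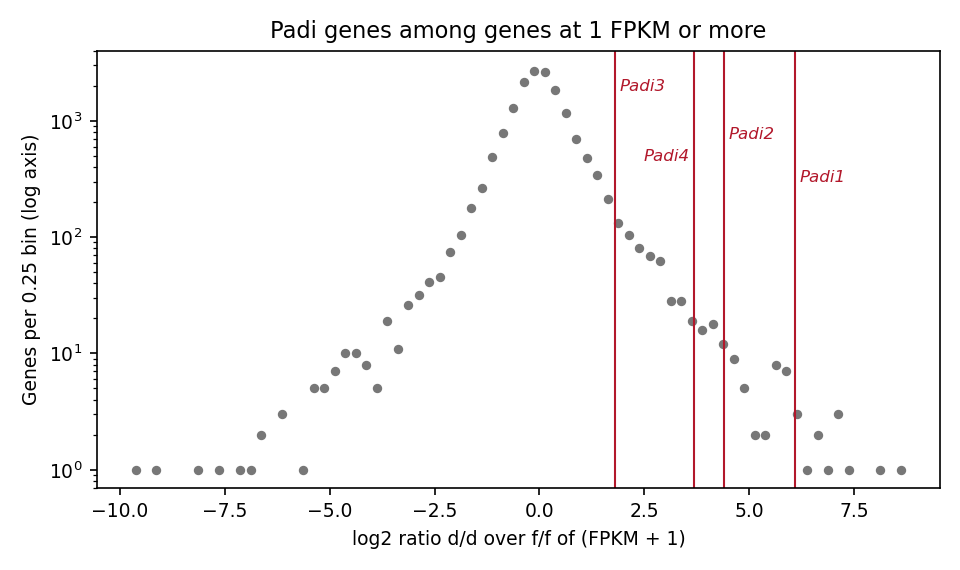
Number of genes per bin of 0.25 in log2 ratio of FPKM + 1, d/d over f/f (grey points, log axis) for 16263 genes that reached 1 FPKM in either library. Red lines mark the 4 Padi genes in that set, at 1.80 for Padi3, 3.69 for Padi4, 4.40 for Padi2 and 6.09 for Padi1.

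The genes lie side by side on chromosome 4 within 225.2 kb of GRCm38. In order along the chromosome, Padi6 (ENSMUSG00000040935) spans 140727355 to 140742643, Padi4 (ENSMUSG00000025330) 140745865 to 140774236, Padi3 (ENSMUSG00000025328) 140785365 to 140810648 and Padi1 (ENSMUSG00000025329) 140812983 to 140845778, all on the minus strand. Padi2 (ENSMUSG00000028927) follows on the plus strand from 140906344 to 140952586. Each has 16 exons in its main coding transcript. The protein-coding genes next to the group on both sides had similar levels in the libraries. Rcc2, a chromosome condensation regulator gene next to Padi6, was 81.3 FPKM in d/d and 86.2 FPKM in f/f. Sdhb, the iron-sulfur subunit of succinate dehydrogenase on the Padi2 side, was 116 FPKM in d/d and 139 FPKM in f/f. Padi6 itself, between Rcc2 and Padi4, was at 0 in both libraries.

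Of 10 flanking protein-coding genes, 5 on each side, 8 reached 1 FPKM in either library. Their log2 ratios ran from -0.27 for Sdhb to 1.47 for Klhdc7a, and Klhdc7a, at 2.89 FPKM in d/d and 0.402 FPKM in f/f, the flanking gene farthest from Padi1 of these, was the single gene of the 8 past 2-fold. This is 12.5% of them, beside 18.4% of all genes in either direction. Arhgef10l had a log2 ratio of 0.77, the lysosomal pump gene Atp13a2 0.44, the microfibril gene Mfap2 -0.22, the rootlet gene Crocc 0.08 and the endocytosis gene Necap2 0.10. Pax7 and Igsf21 stayed below 1 FPKM in both libraries. The noncoding genes that overlap members were low. Gm13032, across the end of Padi1, was 0.516 FPKM in d/d and 0.351 FPKM in f/f, and Gm13031, antisense to the end of Padi2, was 0.137 FPKM in d/d and 0.238 FPKM in f/f. It is not stated whether the counting used strand, so fragments in these overlaps cannot be assigned with certainty.

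**Figure D3:**
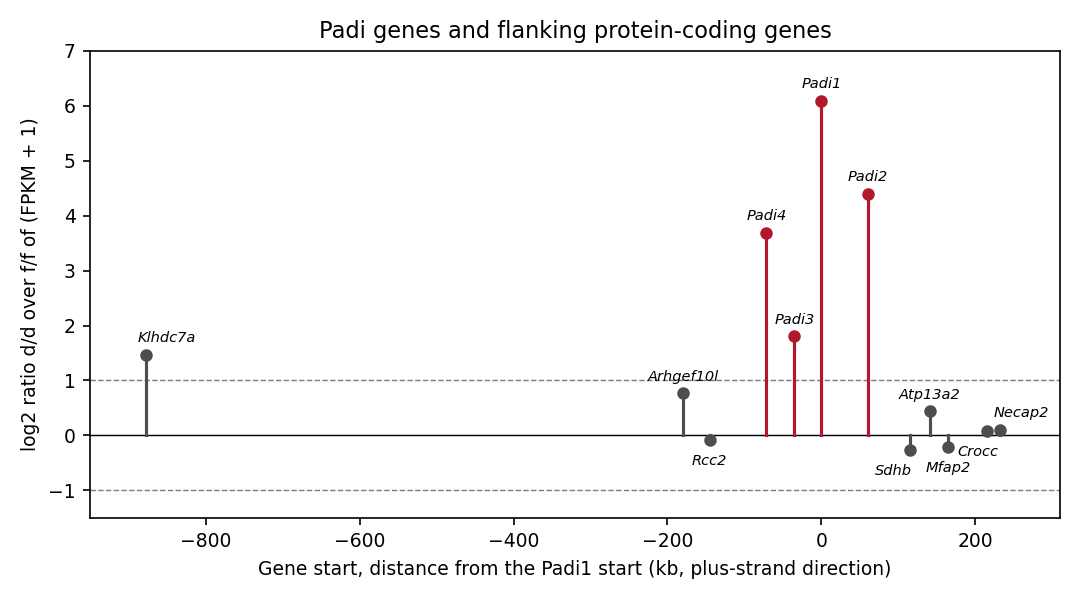
Log2 ratio of FPKM + 1, d/d over f/f, for Padi genes (red) and flanking protein-coding genes (grey) that reached 1 FPKM in either library, by distance of each gene start from the Padi1 start in kb. Dashed lines mark 2-fold. The Padi genes stand between 1.80 and 6.09, and the grey genes nearest to them on both sides, Rcc2 and Sdhb, at -0.08 and -0.27.

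The members are related but not near-identical in sequence. Over the 10 pairs, aligned coding sequences were 62.8% identical at the least, for Padi2 and Padi6, and 69.3% at the most, for Padi3 and Padi4. The longest exact run shared by main transcripts was 63 bases, between Padi1 and Padi3, and the other pairs shared at most 35. Read length is not given in the sources used here, so exchange of fragments between Padi1 and Padi3 was not tested. The core m6A sequence GGACT, counted on the transcript strand, occurred 6 times in Padi2 and 4 times in each of Padi1, Padi3, Padi4 and Padi6. Per kilobase this was 1.07 for Padi1, 1.26 for Padi2, 1.30 for Padi3, 1.73 for Padi4 and 1.71 for Padi6. The median over the main transcripts of 13774 genes was 1.06. At or above the density of Padi4 lay 19.5% of those genes, at or above that of Padi6 19.8% and at or above that of Padi1 49.7%. Methylation itself was not analysed here. Mettl14, the gene named in the genotype, was 3.21 FPKM in d/d and 13.6 FPKM in f/f. Of 10 m6A writers and erasers it was the single one past 2-fold lower, beside 8.28% of all genes. Rbm15, at 13.6 FPKM in d/d and 5.51 FPKM in f/f, was the single one past 2-fold higher, beside 10.2% of all genes. Both counts lie near those shares, and the median log2 ratio of the list was 0.12. With 0.1 FPKM added in place of 1, 2 were higher, and 0 with 5 FPKM added.

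Lists of other arginine-handling genes had medians below 0. Of 12 genes for protein arginine methyltransferases and their partners, which act on the same residues, 11 reached 1 FPKM and none passed 2-fold, with a median log2 ratio of -0.20. The main methyltransferase Prmt1 was 318 FPKM in d/d and 467 FPKM in f/f. The partner of Prmt5, Wdr77, was 33.2 FPKM in d/d and 44.0 FPKM in f/f, and Clns1a was 64.9 FPKM in d/d and 70.3 FPKM in f/f. Of 18 genes of free arginine and citrulline metabolism 13 reached 1 FPKM, of which 1 was 2-fold higher and 3 were 2-fold lower (median -0.57), or 5 lower with 0.1 FPKM added. The higher gene was Arg1, arginase, at 97.7 FPKM in d/d and 0.976 FPKM in f/f. The lower ones were the lyase Asl, at 17.6 FPKM in d/d and 71.8 FPKM in f/f, the arginine transporter Slc7a2, at 2.73 FPKM in d/d and 14.3 FPKM in f/f, and the creatine synthesis gene Gatm, at 5.98 FPKM in d/d and 16.6 FPKM in f/f.

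Genes whose proteins are well known to be citrullinated differed both ways, and those past 2-fold were mostly lower in d/d. Of 25 such genes 17 reached 1 FPKM, of which 1 was 2-fold higher and 7 were 2-fold lower (median -0.31), against 0 higher and 4 lower with 5 FPKM added. The higher gene was Mbp, myelin basic protein, at 9.40 FPKM in d/d and 2.81 FPKM in f/f. Another 9 passed 2-fold in neither direction, Hspa5 among them at 1180 FPKM in d/d and 604 FPKM in f/f, a log2 ratio of 0.97. Vimentin, Vim, was 328 FPKM in d/d and 1080 FPKM in f/f, and S100a3, a Padi3 substrate of the hair cuticle known from human, was 0.207 FPKM in d/d and 6.36 FPKM in f/f. The linker histone gene H1f10 was 8.77 FPKM in d/d and 30.0 FPKM in f/f. The fibrinogen genes Fga and Fgg were listed at 0 in d/d and were 1.78 FPKM and 3.37 FPKM in f/f. The chemokine genes Cxcl10 and Cxcl12 were the other lower members. The replacement histone genes had log2 ratios of -0.01 for H3f3a and 0.28 for H3f3b. Flg and Rptn, epidermal substrates, were listed at 0 in both libraries.

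Epithelial markers were also higher in d/d. Of 18 general epithelial markers, all at 1 FPKM or more, 15 were 2-fold higher and none was 2-fold lower, with a median log2 ratio of 2.52. Their FPKM summed to 2990 in d/d and 565 in f/f, a fold of 5.30, beside 38.6 for the Padi sum. As a share of that epithelial sum, Padi1 was 11.3% in d/d and 0.70% in f/f, Padi2 6.18% in d/d and 1.38% in f/f, and Padi4 1.76% in d/d and 0.56% in f/f. On that scale Padi1 was 16.1-fold higher, Padi2 4.47-fold, Padi4 3.14-fold and the Padi sum 7.3-fold. The markers in the epithelial sum differed from 1.25-fold for Klf5 to 71.5-fold for Krt19, so these folds depend on which markers are summed. Klf5, Krt18 and Prom1 passed 2-fold in neither direction. No epithelial marker had a log2 ratio at or above that of Padi1, 2 had one at or above that of Padi2, namely Krt19 and Elf3, and 3 at or above that of Padi4, with the keratin gene Krt7 as the third. E-cadherin, Cdh1, was 154 FPKM in d/d and 20.8 FPKM in f/f, and the mucin gene Muc1 was 176 FPKM in d/d and 15.4 FPKM in f/f. The share of epithelial cells in the tissue was not measured, and its part in the Padi levels was not tested. Of 16 stroma and smooth muscle markers, 8 were 2-fold lower and none was higher (median -0.98), with summed FPKM of 6150 in d/d and 9700 in f/f. Among the lower were Hoxa10, Hoxa11 and Hand2, which are progesterone-response genes as well. Among the 8 past 2-fold in neither direction, log2 ratios were -0.17 for Dcn, -0.29 for Col1a1, -0.10 for Acta2 and -0.89 for Myh11. Of 11 gland markers 6 were lower and 2 were higher (median -3.52), with summed FPKM of 114 in d/d and 2300 in f/f. Among the lower was Prss29, at 0.195 FPKM in d/d and 943 FPKM in f/f. Prss29, Spink1, Prap1 and Prss28 made up most of the f/f sum. The higher ones were Fxyd4 and Lif. Fxyd4 was 74.5 FPKM in d/d and 3.27 FPKM in f/f, and Lif 12.7 FPKM in d/d and 0.976 FPKM in f/f. Foxa2, Sox9 and Cxcl15 did not pass 2-fold. Foxa2 was 3.56 FPKM in d/d and 5.11 FPKM in f/f, and Sox9 11.0 FPKM in d/d and 8.19 FPKM in f/f.

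Markers of cells known for a single member were examined next, together with macrophage markers, which were not assigned to a member. For Padi4, of 18 neutrophil markers 11 reached 1 FPKM, 5 were 2-fold higher (3 with 5 FPKM added) and none was 2-fold lower (median 0.72). The list summed to 1720 FPKM in d/d and 143 FPKM in f/f, most of the d/d sum from Ltf and Lcn2, which uterine epithelium also makes. Ltf was 647 FPKM in d/d and 3.71 FPKM in f/f, and Lcn2 878 FPKM in d/d and 13.4 FPKM in f/f. The other 16 markers summed to 198 FPKM in d/d and 126 FPKM in f/f, a fold of 1.57, beside 16.6 for Padi4. Retnlg, at 150 FPKM in d/d and 104 FPKM in f/f, made up most of both sums, and the 15 markers without it summed to 47.5 FPKM in d/d and 22.2 FPKM in f/f, a fold of 2.14 (both sums were formed after the values were seen). Ly6g, S100a9 and Fpr1 were the 3 of these markers past 2-fold higher, beside 10.2% of all genes. Ly6g was 9.52 FPKM in d/d and listed at 0 in f/f, and S100a9 was 9.51 FPKM in d/d and 2.67 FPKM in f/f. Fpr1 was 5.85 FPKM in d/d and 1.32 FPKM in f/f. Csf3r was 3.22 FPKM in d/d and 1.99 FPKM in f/f, and S100a8 was 8.08 FPKM in d/d and 8.21 FPKM in f/f. Of the granule genes, Elane, Ctsg and Ngp were listed at 0 in both libraries, Mpo was 1.07 FPKM in d/d and 0.612 FPKM in f/f, Prtn3 was 1.52 FPKM in d/d and 2.10 FPKM in f/f, and Mmp9 was 8.42 FPKM in d/d and 4.72 FPKM in f/f. Of 15 macrophage markers 14 reached 1 FPKM and 5 were 2-fold higher (median 0.84), with sums of 2060 FPKM in d/d and 981 FPKM in f/f. Cd14 had the highest ratio among them, at 91.6 FPKM in d/d and 12.9 FPKM in f/f, and Lyz2 the highest level, at 886 FPKM in d/d and 334 FPKM in f/f. The others past 2-fold were Adgre1, Cd68 and Itgam. Adgre1 was 46.6 FPKM in d/d and 17.6 FPKM in f/f, and Cd68 50.8 FPKM in d/d and 24.2 FPKM in f/f. Itgam was 28.1 FPKM in d/d and 10.4 FPKM in f/f. No macrophage marker was 2-fold lower, but Ccr2 was 19.2 FPKM in d/d and 26.4 FPKM in f/f. Mertk was 5.04 FPKM in d/d and 6.20 FPKM in f/f, and Mrc1 18.2 FPKM in d/d and 18.7 FPKM in f/f.

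For Padi3, of 22 cornified epithelium and hair follicle markers 8 reached 1 FPKM, with 5 higher and 1 lower (median 1.31) and sums of 95.3 FPKM in d/d and 12.8 FPKM in f/f. With 5 FPKM added, or among genes at 5 FPKM or more, 1 was higher and 0 were lower. Sprr1a, at 75.3 FPKM in d/d and 0.390 FPKM in f/f, made up most of the d/d sum. The cornified envelope genes Lor and Ivl were 3.94 FPKM and 1.69 FPKM in d/d, against 0.913 FPKM and 0.123 FPKM in f/f. Krt13 was 3.81 FPKM in d/d and listed at 0 in f/f, and Krt6a was 1.98 FPKM in d/d and 0.0253 FPKM in f/f. The lower gene was Tgm1, at 0.548 FPKM in d/d and 3.0 FPKM in f/f. Tchh, at 0.622 FPKM in d/d and 1.02 FPKM in f/f, and Krt10, at 6.38 FPKM and 6.51 FPKM, passed 2-fold in neither direction. Of the hair root sheath keratins, Krt71 and Krt27 were at 0 in both, Krt25 was 0.305 FPKM in d/d and 0.0889 FPKM in f/f, and the basal keratin genes Krt5 and Krt14 were 0.181 FPKM and 0.0920 FPKM in d/d and at 0 in f/f. For Padi6, of 18 oocyte and early embryo markers 4 reached 1 FPKM and 3 were higher (median 1.19), of which 0 stayed past 2-fold with 5 FPKM added and 1 with a filter of 5 FPKM, with sums of 9.04 FPKM in d/d and 4.33 FPKM in f/f. Tle6 was the most abundant, at 5.22 FPKM in d/d and 1.42 FPKM in f/f. Zp1 was 1.57 FPKM in d/d and 0.0301 FPKM in f/f, Dppa3 was 1.09 FPKM in d/d and listed at 0 in f/f, and Gdf9 was 0.488 FPKM in d/d and 1.34 FPKM in f/f. Of the 18 markers 6 were at 0 in both libraries, Zp3, Nlrp5, Figla and Pou5f1 among them.

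Genes known to respond to ovarian hormones were split by hormone. Of 29 uterine estrogen-response genes listed without the Padi family, 28 reached 1 FPKM, 20 were 2-fold higher in d/d and none was 2-fold lower (median 2.52). Log2 ratios at or above that of Padi1 were held by 3 of the 28, namely Ltf, Chst8 and Sprr2a2, at or above that of Padi2 by 9 and at or above that of Padi4 by 10. The sulfotransferase Chst8 was 201 FPKM in d/d and 1.19 FPKM in f/f. The Sprr2 genes are near copies of each other, so that Sprr2a2, at 113 FPKM in d/d and 0.317 FPKM in f/f, and Sprr2f, at 649 FPKM in d/d and 10.4 FPKM in f/f, are uncertain singly. The estrogen receptor gene Esr1 was 95.2 FPKM in d/d and 52.8 FPKM in f/f. Of 22 progesterone-response genes, all at 1 FPKM or more, 18 were 2-fold lower and 2 were higher (median -2.26). Cyp26a1, which degrades retinoic acid, was 0.380 FPKM in d/d and 181 FPKM in f/f, and the activin-binding Fst was 0.800 FPKM in d/d and 57.6 FPKM in f/f. The progesterone receptor gene Pgr was 57.4 FPKM in d/d and 43.7 FPKM in f/f. These directions were known when the Padi genes were chosen. Of the estrogen-response genes 2 are epithelial markers as well and 2 are neutrophil markers. The lower progesterone-response genes Hoxa10, Hoxa11 and Hand2 are stroma markers as well. Hormone levels were not analysed here.

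**Figure D4:**
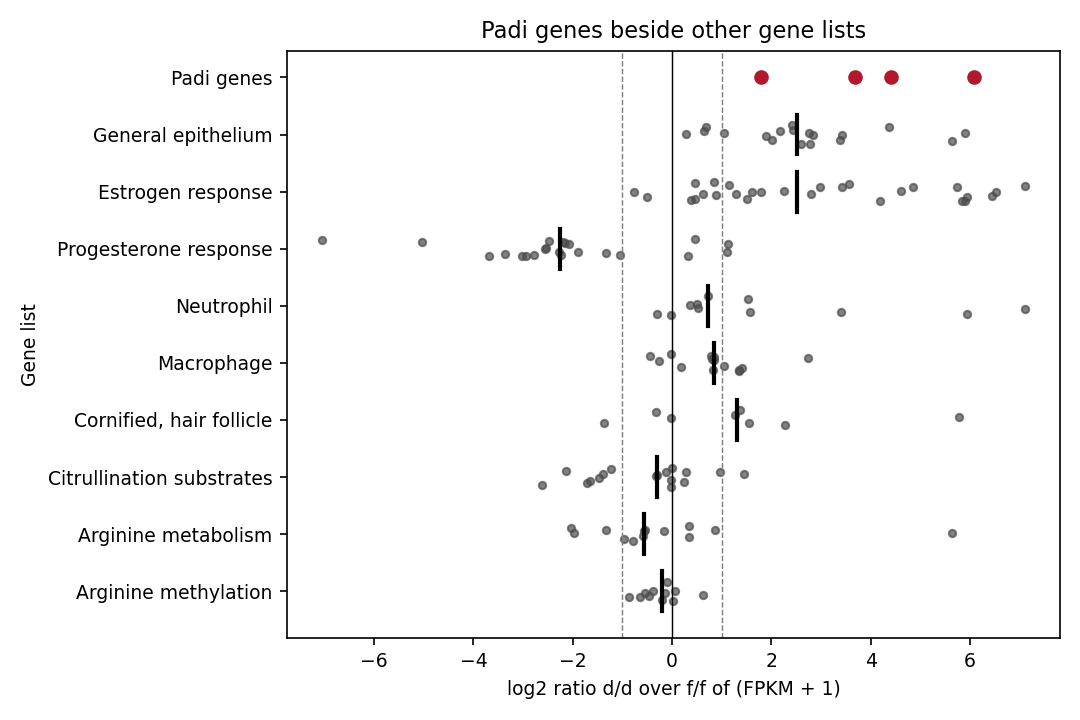
Log2 ratio of FPKM + 1, d/d over f/f, for the Padi genes (red) and for each gene that reached 1 FPKM in either library of 9 other lists (grey points, spread vertically for visibility), with the median of each list as a black bar. Dashed lines mark 2-fold. Epithelial and estrogen-response genes had medians of 2.52 each, and the arginine methylation genes lay between -0.87 and 0.62.

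The genes most like Padi1 in level in both libraries were found by distance on log2(FPKM + 1) over the 2 libraries. The search took genes that reached 1 FPKM in either library and left out gene models, clone names and the Padi genes. Nearest was the keratin gene Krt19, at 348 FPKM in d/d and 4.87 FPKM in f/f and a distance of 0.248. Next came the epithelial transcription factor gene Elf3 at 0.541, with 355 FPKM in d/d and 6.19 FPKM in f/f, then Ltf at 0.939 and the inhibin subunit gene Inhbb at 0.954, with 182 FPKM in d/d and 5.29 FPKM in f/f. The fifth was the immunoglobulin segment Igkv9-120 at 1.28. For Padi2 the nearest were Igkv4-59 at 0.144, with 185 FPKM in d/d and 8.73 FPKM in f/f, Inhbb at 0.487, the eosinophil chemokine gene Ccl11 at 0.508, with 131 FPKM in d/d and 8.58 FPKM in f/f, Igkv9-120 at 0.620 and Igkv3-5 at 0.645. With 2 libraries many genes can lie close by level alone, and immunoglobulin segments share near-identical sequence, so their values are uncertain.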

How the data were processed

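RNA of whole uterus was sequenced from 1 d/d and 1 f/f library. The authors deposited FPKM values per gene. Per the submitters' processing notes HISAT2 2.2.1, Cufflinks 2.2.1 and mm10 were used; the sources used here do not give annotation release, strandedness, read length or pooling. The 55483 rows became 55363 genes after rows sharing a symbol were summed. From these values log2((FPKM + 1) in d/d over f/f) was computed for the 16263 genes that reached 1 FPKM in either library. No test was run. Depth was estimated from the steps of low values in genes with 1 transcript of at least 2000 nt: 20850000 fragments in d/d, putting 71.9% of 804 such values no more than 0.1 from a whole fragment, and 17750000 in f/f, putting 75.2% of 783 there. Full transcript lengths were used, so fragment numbers, intervals and limits (3 fragments) are approximate. Positions and transcripts come from GENCODE M21, promoters from RefSeq (GRCm38.p6; all 5 genes matched).

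The members and the 13 gene lists were chosen with earlier results of these data known. Named were the members, Mettl14, 5 flanking coding genes on each side, the 5 genes nearest to Padi1 and to Padi2, and up to 6 genes per list past 2-fold (otherwise the 3 most abundant). Not all of these are printed, and others, such as S100a8, Esr1, Pgr, H3f3a, Flg and genes at 0, were added after their values were seen. Other pseudocounts, filters and scalings were tried. Coding sequences were aligned with Biopython 1.88 and the counting was tested on simulated data.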

Additional observations from a re-analysis of the deposited data

How the results depend on the processing

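The 4 Padi genes that could be measured were higher in d/d under each of the 9 alternative settings that kept them. Most of these settings could not have reversed a direction. Pseudocounts and filters cannot do so, and each member had 1 row, so the choice of row could not either. Only the scalings could, and the factor of median ratio scaling was 1.01. A pseudocount of 0.1 gave log2 ratios of 6.38 for Padi1, 4.55 for Padi2, 4.01 for Padi4 and 4.49 for Padi3, which then stood above Padi4; with 0.5 Padi3 was at 2.56. A pseudocount of 5 gave 5.26 for Padi1, 3.89 for Padi2, 2.82 for Padi4 and 4.87 for the Padi sum, and 0.59 for Padi3, which then was no longer past 2-fold, leaving 3 members past it. That pseudocount also left 1408 genes past 2-fold, 869 higher and 539 lower, in place of 2998, and the larger pseudocount is by its construction the stricter. Upper quartile scaling gave 5.08 for the Padi sum in place of 5.18, and with it the median over all genes was -0.10, with 1490 genes higher and 1502 lower in place of 1652 and 1346. A filter of 5 FPKM removed Padi3 and gave no value for it. Of 234 counts in single lists 13 moved by more than 1.5 times, under 3 of the settings, all of them pseudocounts or the filter of 5 FPKM. They belong to the substrate, arginine metabolism, neutrophil, oocyte, cornified epithelium and m6A writer and eraser lists. No paired analysis was possible because each genotype has 1 library, and for the same reason no replicate could be left out. Depth limits Padi3 in f/f, at about 1 fragment, and Padi6 in both libraries.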
